A study of Solanum lycopersicum with 8 samples.

Results

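Ethylene is the gaseous hormone that drives the ripening of climacteric fruit such as tomato. It is made from S-adenosylmethionine by a pair of enzymes acting in turn. ACC synthase (ACS) forms 1-aminocyclopropane-1-carboxylic acid (ACC), and ACC oxidase (ACO) turns ACC into ethylene. Both enzymes are encoded by gene families, and ACS2 and ACS4 are the synthase genes known for the ethylene burst of ripening fruit. The genes described here are the synthases ACS2 and ACS4 and the oxidases ACO1, EFE and ACO4. EFE stands for ethylene-forming enzyme, an older name of ACC oxidase, and the reference also lists ACO3 and ACO4 among the synonyms of that gene. It lists EFE in turn among the synonyms of ACO1, while keeping ACO1 and EFE as separate genes. The 5 genes are among 1214 that could be named on the array, and they were taken with every non-control probe whose RefSeq transcript belongs to them. This gave 15 of 33750 probes, namely 2 for ACS2, 2 for ACS4, 8 for ACO1, 2 for EFE and 1 for ACO4.

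The samples were whole mature leaf and whole red ripe fruit of the tomato accessions AV, TM, SK and RJ. AV came from Hyderabad, TM from Kashmir, SK from Chatha and RJ from Rajouri in Jammu, and the submitters describe them as differing in how they mature and in the carotenoids of their ripe fruit. The series holds 1 leaf and 1 fruit array of each accession, with no treatment or transgene named in the labels. A group of 4 arrays therefore holds 4 genotypes, and a level of 1 accession in 1 tissue has no replicate. Whether the RNA of an array came from 1 plant or from several is not stated, so that p-values measure only the spread between these arrays.

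No spot of the 15 probes was saturated, and the share of non-control probes whose signal was well above background ranged over the arrays from 17.3% to 24.4%. The leaf markers CAB4, CAB6A, PsbQ and SBPASE were higher on every leaf array than on every fruit array. Their summed level, on the log2 scale, was 3.57 to 4.18 in leaf and -3.06 to -2.73 in fruit. Of the ripe fruit markers 2A11, PSY1, PG2, EXP1 and ADH2, all but PG2 were higher on every fruit array than on every leaf array. The summed level of these markers, PG2 included, was 4.75 to 6.17 in fruit and -3.30 to -2.52 in leaf. PG2, which encodes the polygalacturonase that degrades pectin during ripening, was not well above background in TM fruit, while it lay at 4.18 in AV, 0.90 in SK and 2.36 in RJ fruit. The trichome marker MTS1 was not well above background on any array. The seed marker LEA14 lay between -2.48 and 1.27 in leaf and between -0.54 and -0.04 in fruit. All leaf arrays were on 1 slide and the fruit arrays on a further 2, AV and TM on one and SK and RJ on the other, so that tissue and slide cannot be told apart.

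Levels are log2 processed signals relative to the 75th percentile of the array, so that 0 is the level of a fairly bright probe, and a difference of 1 is a doubling. Since probes differ in how they bind, a level is compared only with levels of the same probe or gene on other arrays. The fit covered 6660 probes, or 4729 targets once the probes of a gene were averaged and unnamed probes were kept single. Fruit and leaf differed at an adjusted p under 0.05 by limma for 56.8% of these probes and 53.7% of these targets. Against this wide background 3 of the 5 genes, ACS2, ACS4 and EFE, were called higher in fruit, where 25.9% of all targets were. ACO4 was called lower, where 27.8% of targets were, and ACO1 was not called. Of the 15 probes 13 entered the fit, which took a probe only where 1 tissue or both had all 4 arrays well above background. The ACS probes entered through fruit alone and were not well above background on any leaf array, so the filter favoured a rise. The EFE probe in the fit and every ACO1 probe but BT_S_96_P000019 also entered through fruit alone, as SK leaf was not well above background.

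The synthase gene ACS2 was higher in ripe fruit than in leaf in all 4 accessions. In fruit the mean of its 2 probes lay at 0.47 in AV, -1.37 in TM, -1.81 in SK and -0.83 in RJ. In leaf it lay at -5.48 in AV, -5.93 in TM, -5.36 in SK and -5.74 in RJ, and neither probe was well above background on any leaf array. Every fruit array was thus above every leaf array, as held for 27% of the targets. The fitted difference was 4.74 ± 0.40 (log2 ± SE, 4 accessions, limma adjusted p = 0.000108), higher in 4 of 4. Since the leaf signal gives only an upper limit, ACS2 was at least 6.22-fold higher in fruit, taking the dimmest signal well above background on each leaf array in place of its own. The probes differed little, with at least 6.65-fold and at least 5.83-fold. In whole tissue, fewer cells expressing a gene and less of its RNA per cell cannot be told apart.

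ACS4 was higher in fruit as well and nearer to the background. The mean of its 2 probes lay at -1.81 in AV, -2.98 in TM, -3.59 in SK and -2.01 in RJ fruit. In leaf it lay at -5.40 in AV, -5.89 in TM, -5.29 in SK and -5.59 in RJ, with neither probe well above background. The tissues did not overlap, and the difference was 2.95 ± 0.37 (log2 ± SE, limma adjusted p = 0.000674), higher in 4 of 4 accessions, though under spike-in scaling SK turned to -0.14. Over the mean of the accessions this was at least 1.90-fold. In SK the fruit mean of -3.59 lay below the dimmest signal well above background in SK leaf (-3.23), so the gene mean gives no bound there. The probe that passed the filter (A_96_P084204) gave at least 3.67-fold. The other (A_96_P244104) was well above background only in AV and RJ fruit and did not enter the probe fit, with a difference of 2.13.

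**Figure D1:**
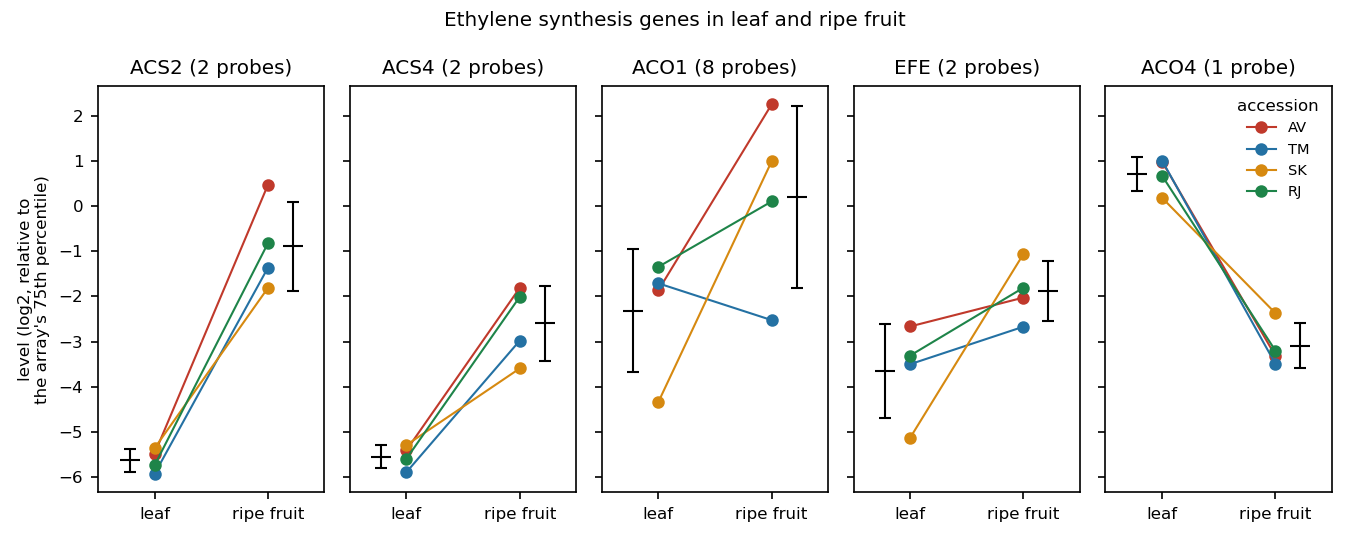
Level of each ethylene synthesis gene (log2, relative to the 75th percentile of the array) in mature leaf and red ripe fruit. Each coloured line joins the leaf and the fruit array of 1 accession, and black marks give the mean and SD over the 4 arrays of a tissue. ACS2 and ACS4 were higher in all 4 fruits, ACO4 was lower in all 4, and ACO1 was lower in fruit than in leaf only in TM.

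Both synthase genes ranked the 4 fruits alike. All 4 ACS probes had AV highest, then RJ, TM and SK, an order that 2.10% of the targets had. For the ACS4 probe A_96_P244104 TM and SK fruit were not well above background, so it does not resolve the order of those fruits. The orders of ACS2 and ACS4 were also the same under each of the 6 other ways of obtaining the values. Not every step of the order was larger than the error that the scanner software gives for the spots. For ACS2 the step from AV to RJ was 1.29, beyond 2 combined errors, and so was that from RJ to TM at 0.54, while that from TM to SK at 0.45 was not. For ACS4 AV and RJ differed by 0.20, which is within the combined error of 0.29, RJ exceeded TM by 0.97, beyond 2 errors, and TM exceeded SK by 0.62, which was not. The SD over the 4 fruit arrays was 0.99 for ACS2, larger than that of 95.8% of the targets, and 0.84 for ACS4, larger than that of 93.3%. The targets include ones that entered through leaf alone and were not well above background in fruit, so the shares of orders and SDs are descriptions. No order is given for leaf, where no signal was well above background.

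ACO1 encodes the ACC oxidase that is known as the main form of ripening tomato fruit. Its fruits were far apart. The mean of its 8 probes lay at 2.25 in AV, -2.52 in TM, 0.99 in SK and 0.10 in RJ fruit, and each probe was well above background in every fruit. The highest fruit, AV, was 27.4-fold above the lowest, TM. The SD over the fruit arrays was 2.02, larger than that of 99.5% of the targets, some of them not well above background in fruit. In all 8 probes the order was AV, SK, RJ and TM, and each step of the gene's mean was beyond 2 combined errors of the scanner software. That order is the most frequent one on these arrays, with 17.3% of the targets, while AV was highest for 32.6% and TM lowest for 46.7%. These shares also count targets not well above background in fruit.

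In leaf ACO1 lay at -1.87 in AV, -1.71 in TM, -4.34 in SK and -1.34 in RJ. SK leaf stood apart, with 7 of the 8 probes not well above background there, so that its level is an upper limit for those probes. The SD over the leaf arrays was 1.37, larger than that of 96.8% of the targets, some of them not well above background in leaf. Steps among RJ, TM and AV leaf stayed within 2 combined errors.

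The fruits and leaves of ACO1 overlapped, and the size and sign of the difference varied with the accession. Fruit minus leaf was 4.12 in AV, -0.81 in TM, 5.33 in SK and 1.45 in RJ. The SK value rests on a leaf signal that was not well above background in 7 of the 8 probes. ACO1 was thus higher in fruit in 3 of 4 accessions and lower in TM. The TM value ranged from -1.27 to 0.11 over the 8 probes, was below 0 in 7 of them, and was below 0 for the gene under the 6 other ways of obtaining the values. With 1 array per accession and tissue this departure has no replicate, and it was not tested. TM fruit is also the fruit in which PG2 was not well above background, and the part of the ripening stage in these values was not tested.

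Over the 4 accessions the difference of ACO1 was 2.52 ± 0.95 (log2 ± SE, limma adjusted p = 0.0632), which did not pass. Of its probes 4 of 8 were called, with adjusted p from 0.0175 to 0.0681, beside 28.9% of all probes called higher. The 4 called probes entered the fit through fruit alone, which favours a rise. Among probes well above background on all 8 arrays, the 1 ACO1 probe left was not called (limma adjusted p = 0.0806). Without the TM arrays the difference of the gene was 3.63 (adjusted p = 0.00926). Then 8 of 8 probes were called, beside 1583 of 6660 probes called higher. Without the SK arrays it was 1.58 (adjusted p = 0.233) and 0 of 8 were called, beside 1437 of 6660. These 8 probes measure 1 gene on the same arrays and are not replicates. With slide as a random block, whose estimated correlation was -0.19, the gene was called at the same difference (adjusted p = 0.0163). With slide as a fixed term it was not, at 1.65 (adjusted p = 0.407). Of its probes 0 of 8 were called there, beside 1029 of 6660 probes called higher. The estimate of 1.65 is the mean difference of AV and TM, since the term parts only the fruit slides and every leaf array shared 1 slide. Such a fit cannot separate tissue from slide. Grouped by the slide of the fruit array, the mean difference from leaf, which was on another slide, was 1.65 for AV and TM and 3.39 for SK and RJ.

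**Figure D2:**
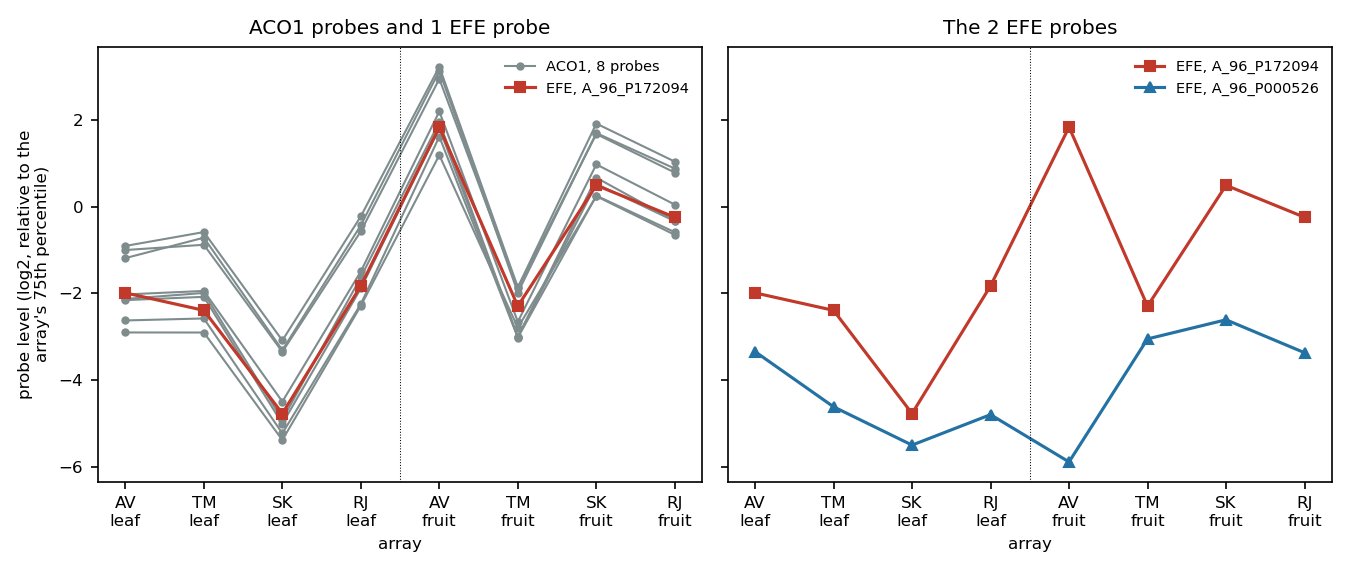
Level of each probe (log2, relative to the 75th percentile of the array) on the 4 leaf and 4 fruit arrays. The left panel shows the 8 ACO1 probes in grey with 1 EFE probe in red, and the right panel the EFE probes. The red EFE probe follows the ACO1 probes with AV fruit highest, while the other EFE probe (blue) is lowest in AV fruit.

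The probes of ACO1 gave 1 pattern. After each was centred on its own mean over the 8 arrays, the root mean square difference from the ACO1 mean ranged from 0.0647 to 0.272 on the log2 scale. On single arrays the SD over the centred probes was at most 0.30, in TM fruit. Of these probes 5 were printed 3 times on the array, and the SD over their spots was between 0.0107 and 0.159, with a median of 0.0700, far below the spread between fruits.

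EFE, which also encodes an ACC oxidase, had probes that did not share a pattern, so that its mean has to be read with care. The probe A_96_P172094 lay at 1.83 in AV, -2.29 in TM, 0.49 in SK and -0.25 in RJ fruit. In leaf it lay at -1.99 in AV, -2.39 in TM, -4.76 in SK and -1.83 in RJ, and it was not well above background in SK leaf. Its order over the fruits was that of ACO1, and fruit exceeded leaf by 3.82 in AV, 0.10 in TM, 5.25 in SK and 1.58 in RJ. The difference was 2.69 ± 0.76 (log2 ± SE, limma adjusted p = 0.0175), higher in 4 of 4 accessions though by little in TM, with overlapping tissues. Without the SK arrays it was no longer called, at 1.83 (adjusted p = 0.0914).

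Among 6640 tested probes of other genes, A_96_P172094 had the profile nearest to the ACO1 mean. The root mean square difference was 0.262, and the next nearest probe, of AOX1a, lay at 0.873. Of the ACO1 probes, which are part of that mean, only A_96_P244164 lay further out (0.272), and the rest lay at 0.0647 to 0.166. The EFE probe minus the ACO1 mean ran from -0.68 in TM leaf to 0.23 in TM fruit. In the reference annotation ACO1 and EFE lie on chromosome 7 with 1 gene between them, while ACS2 lies on chromosome 1, ACS4 on chromosome 5 and ACO4 on chromosome 2. Which transcripts each probe can bind was not tested.

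The other EFE probe, A_96_P000526, lay at -5.88 in AV, -3.05 in TM, -2.61 in SK and -3.36 in RJ fruit. It lay at -3.34 in AV, -4.61 in TM, -5.49 in SK and -4.79 in RJ leaf. No leaf signal was well above background, nor was that of AV fruit, so it did not enter the probe fit. Its order over the fruits was SK, TM, RJ and AV, with AV lowest where the first probe had AV highest. Its root mean square difference from the ACO1 mean was 2.21.

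Averaged over both probes, EFE lay at -2.02 in AV, -2.67 in TM, -1.06 in SK and -1.81 in RJ fruit. The leaf values were -2.66 in AV, -3.50 in TM, -5.13 in SK and -3.31 in RJ. AV leaf lay above TM fruit, so that the tissues overlapped by that single pair. The difference was 1.76 ± 0.58 (log2 ± SE, limma adjusted p = 0.0389), higher in 4 of 4 accessions. The call was lost without the RJ arrays, at 1.85 (adjusted p = 0.0859), and the difference was 0.99 without the SK arrays (adjusted p = 0.0481). With slide as a fixed term, where the estimate is the mean difference of AV and TM alone, it was 0.73 (adjusted p = 0.445). Grouped by the slide of the fruit array the mean difference was 0.73 for AV and TM and 2.79 for SK and RJ, and under spike-in scaling it was below 0 in AV (-0.66) and TM (-0.62).

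ACO4 was the only one of the 5 genes lower in fruit, and all 8 arrays measured it well above background with its single probe. It lay at 0.99 in AV, 1.01 in TM, 0.19 in SK and 0.67 in RJ leaf. In fruit it lay at -3.31 in AV, -3.49 in TM, -2.37 in SK and -3.20 in RJ. Every leaf was above every fruit, as for 28.1% of the targets. ACO4 fell by 3.81 on the log2 scale (SE 0.36, limma adjusted p = 0.000192), which is 14.0-fold, and was lower in 4 of 4 accessions. Among the fruits SK exceeded RJ by 0.83, beyond 2 combined errors of the scanner software, whereas RJ, AV and TM fruit lay within the error of each other. The SD over the fruits was 0.50, larger than that of 74.3% of the targets, some of them not well above background in fruit.

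**Figure D3:**
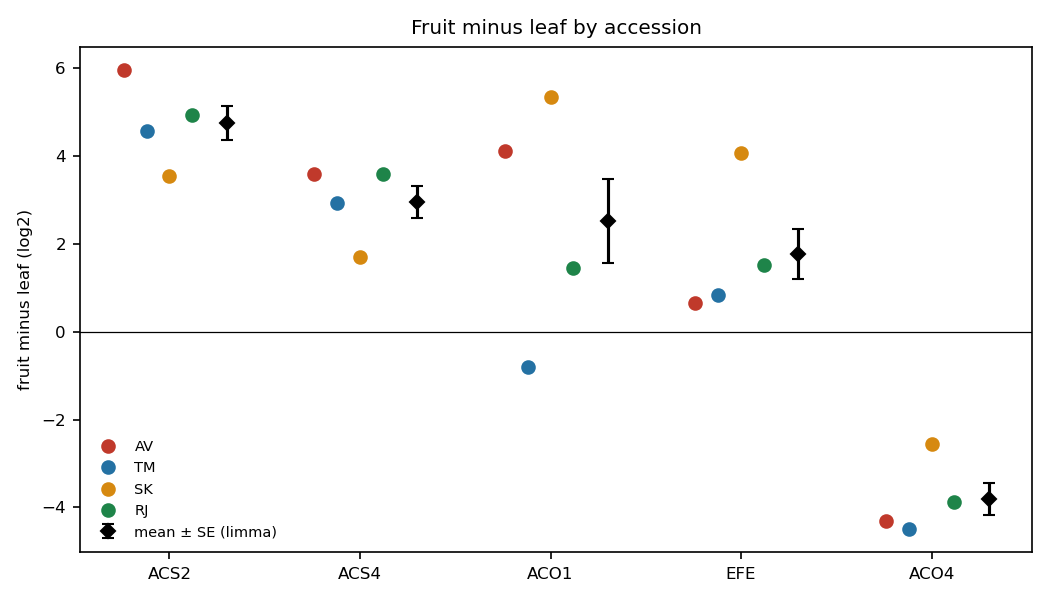
Fruit minus leaf (log2) of each gene. Coloured points are the 4 accessions, and black diamonds with bars are the limma estimate and its SE. ACO1 spans -0.81 in TM to 5.33 in SK, while the accessions of ACS2, ACS4 and ACO4 lie on 1 side of 0. Most ACO1 probes were not well above background in SK leaf, nor was any ACS2 or ACS4 probe in any leaf.

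**Figure D4:**
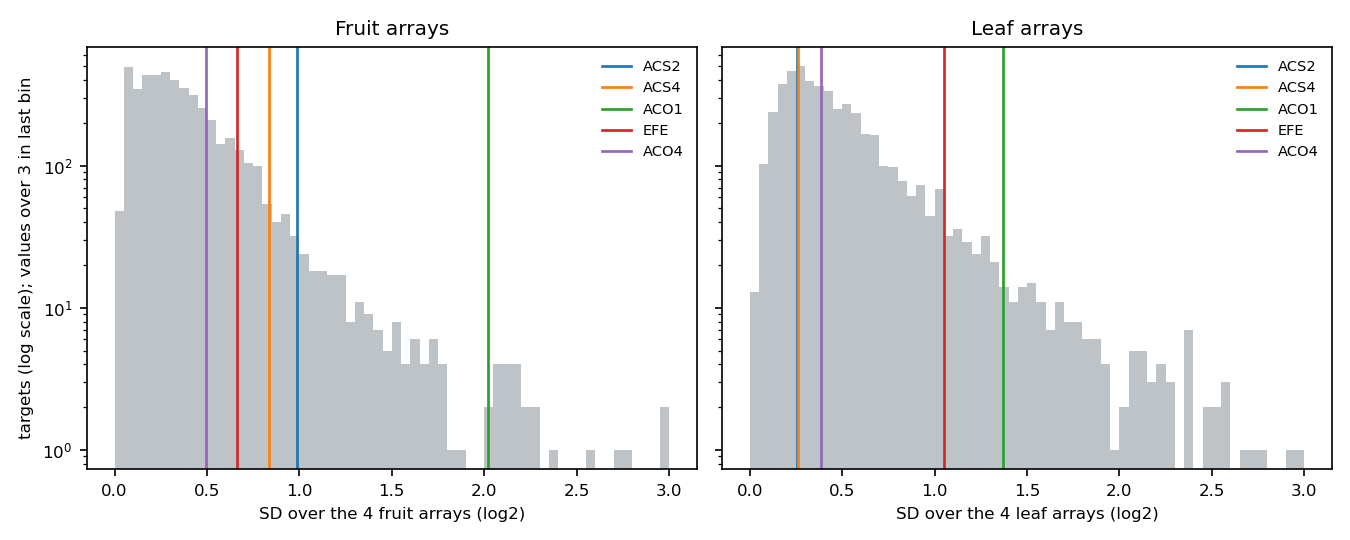
Distribution of the SD over the 4 fruit arrays (left) and the 4 leaf arrays (right) for 4725 targets, with the number of targets on a log axis and values over 3 gathered in the last bin. Vertical lines mark the 5 genes, with ACO1 at 2.02 in fruit and 1.37 in leaf. Leaf values of ACS2 and ACS4 are not well above background. Among the targets are some not well above background in fruit and some not in leaf.

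A difference between accessions shared by both tissues was not found for any of the 5 genes. The limma F test of the accession terms gave an adjusted p of 0.9996 for each, and unadjusted p from 0.248 for ACS2 to 0.986 for ACO4. Over all targets limma called 0 at an adjusted p under 0.05 (0%), while 115 had an unadjusted p under 0.05 (2.43%). This test does not cover differences within 1 tissue, for which there is 1 array per accession.

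Among 360 named genes of other families, those with the profile most like each gene over the 8 arrays were found by the root mean square difference (log2) of centred profiles. For ACS2 they were vis1 (0.31), TIL (0.38) and HSP21, a small heat shock protein gene of plastids (0.48). For ACS4 they were GSH1 (0.43), the ethylene receptor gene ETR4 (0.45) and the NAC transcription factor gene JA2 (0.48). ACO1 had no match as near, with the alternative oxidase gene AOX1a at 0.79, ail at 1.12 and the MADS-box gene TM29 at 1.22. For EFE they were SPS (0.41), ail (0.43) and FDH (0.47), and for ACO4 the photosystem gene PSBP (0.18), Asr4 (0.39) and GAME1 (0.41). Among the 5 genes themselves ACS2 and ACS4 were nearest to each other (0.94), followed by ACO1 and EFE (1.17). Part of this likeness for ACS2 and ACS4 rests on leaf signals not well above background. The EFE profile used here is the mean of probes that did not share a pattern. Its probe A_96_P172094 alone lay at 0.262 from the ACO1 mean.

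The rest of the ethylene pathway and the ripening regulators were described from lists of 65 genes, of which 43 were on the array and 24 entered the fit. Of these 12 rose, 4 fell and 8 did not pass, with a median difference of 1.17 against 0.02 over all targets. Over all targets 25.9% were called higher and 27.8% lower. The filter takes a gene that is bright in fruit alone, which favours a rise, so the counts are a description.

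Other genes of ethylene synthesis were mostly too dim. Of 8 further ACS and ACO genes on the array ACS1A, ACS5, ACS6, ACS7, ACS8 and ACO5 did not enter the fit, and ACS5, ACS7, ACS8 and ACO5 were not well above background on any array. ACO6 lay at -0.30 in AV, -1.33 in TM, -2.53 in SK and -0.72 in RJ leaf, and at -3.47 in AV, -5.92 in TM, -4.20 in SK and -5.21 in RJ fruit. Like ACO4 it was lower in each fruit than in any leaf, by 3.48 ± 0.51 (fall, log2 ± SE, limma adjusted p = 0.00138), with 2 of 4 fruit arrays well above background. ACS3 was at 0.10 ± 0.21 (adjusted p = 0.731), and SAM1, which encodes a synthetase of the precursor S-adenosylmethionine, at 1.08 ± 0.38 (adjusted p = 0.0510). Neither passed the test, and both depended on the setting. The mean of the 7 ACS3 probes lay between -5.54 and -5.19 on all arrays, below the dimmest signals well above background. ACS3 was called higher with normexp correction (1.27, adjusted p = 0.0105), with its brightest probe (1.24, adjusted p = 0.0252) and with only the probes that passed the filter (1.24, adjusted p = 0.0240). With spike-in scaling it was called lower (-1.21, adjusted p = 0.0170). SAM1 was called higher under 11 of 26 alternatives and was at -0.22 with spike-in scaling. These alternatives repeat some fits, since leaving out either array of an accession gives the same difference as leaving out the accession.

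Of 8 receptor and signalling genes tested 4 rose and 4 did not pass, beside 25.9% of all targets called higher. The receptor genes ETR3 (Never ripe, found by synonym) and ETR4 were higher in fruit, at least 4.21-fold and 2.23-fold respectively. EBF1, an F-box gene that acts on the EIN3 family of transcription factors, rose by 2.76 ± 0.32 (log2 ± SE, adjusted p = 0.000485). EIL1, of that family, rose by 1.26 ± 0.32 (adjusted p = 0.0158), a direction that turned to -0.043 under spike-in scaling. It was no longer called without TM, at 0.95 (adjusted p = 0.0597), or without SK, at 1.23 (adjusted p = 0.0641).

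Of 7 ethylene response genes tested 3 rose, 2 fell and 2 did not pass, beside 25.9% of all targets called higher and 27.8% called lower. ERF6 rose by 4.50 ± 0.45 (adjusted p = 0.000251) and JERF1 by 3.04 ± 0.27 (adjusted p = 0.000130), both ethylene response factors. E8, a ripening gene matched here by symbol, was at least 1.87-fold higher in fruit. The ERF genes that fell were ERF4, at least 1.96-fold lower, and ERF3, at -1.02 ± 0.27 (log2 ± SE, adjusted p = 0.0181). With normexp correction neither was called (adjusted p = 0.0607 for ERF4 and 0.0514 for ERF3). The call of ERF3 was also lost without TM (-0.82, adjusted p = 0.0822), without SK (-1.03, adjusted p = 0.0594) or without RJ (-0.99, adjusted p = 0.0742).

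All 6 ripening regulators tested were called, 5 of them higher in fruit, beside 53.7% of all targets called and 25.9% called higher. The 5 entered the fit through fruit alone, and RIN, NOR, TM5 and AP2a were not well above background on any leaf array. RIN, the MADS-box factor known to act on ACS2 and ACS4, was at least 11.2-fold higher. NOR, a NAC factor, was at least 3.72-fold higher, and TM5, a MADS-box gene found by synonym, at least 1.68-fold. FUL1, well above background on 1 of 4 leaf arrays, had a fitted difference of 5.34 ± 0.37 (adjusted p = 5.18e-05), which rests partly on leaf signals near background. For AP2a no fold is given, since its fruit mean did not exceed the dimmest signals well above background in leaf. Its call at an adjusted p of 0.00193 was lost with spike-in scaling (adjusted p = 0.492). ARF4, an auxin response factor, was at least 1.10-fold lower in fruit.

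The order of the fruits in these genes was set beside that of the synthesis genes. Of the 12 genes that rose, 6 had AV highest and 6 had TM lowest, and 2 had the full order of ACO1. Over all targets these shares were 32.6%, 46.7% and 17.3%. They also count targets not well above background in fruit, so they are no like measure for genes bright in fruit. The dimmest signals well above background had the order of ACO1 too, at -3.53 in AV, -3.54 in SK, -3.56 in RJ and -3.69 in TM fruit. RIN lay at 1.32 in AV, -1.37 in TM, -0.23 in SK and 0.14 in RJ fruit, with AV highest and TM lowest, as in ACO1. NOR lay at -0.16 in AV, -2.58 in TM, -1.88 in SK and -1.88 in RJ fruit, with the same highest and lowest fruits. The signalling genes EBF1 and EIL1 and the response factor ERF6 were instead highest in TM fruit, at -0.45, -1.98 and 2.52. These orders rest on 1 array per fruit and were not tested.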

How the data were processed

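RNA of mature leaf and red ripe fruit was labelled with Cy3 and hybridised to one-colour Agilent arrays, per the labels. Intensity values of each spot were deposited as scanner files written by Agilent Feature Extraction 10.7.3.1, with other columns holding flags for outliers, saturation and signal well above background, per the file headers. The authors also deposited a log2 table, used as an alternative; 99.7% of its differences between arrays lay within 0.02 of those of the processed signals up to 1 constant per array, its array medians lay between -0.07 and 0, what was subtracted from each probe is not known, and 247 further columns were not used. The genome build is not given in the sources used here. No probe or gene sequence was used.

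Outlier spots were dropped and log2 values of replicate spots averaged. From each array its 75th percentile over the 3091 probes above background everywhere was subtracted. Of 3132 probes with a transcript accession, 2936 matched a RefSeq table of tomato genes, used for names and neighbours. All probes of a gene were averaged, dim ones included. The tissues were compared by lmFit and eBayes of limma 3.58.1 (R 4.3.3), with a fixed term for accession, which leaves 3 residual degrees of freedom. P-values were adjusted by Benjamini-Hochberg over all probes or targets. The block follows the accession labels. Deviations of the leaf and fruit array of an accession from their tissue means correlated at -0.23 in AV, -0.21 in TM, 0.05 in SK and -0.24 in RJ over 3085 probes. For a bound, the brighter tissue's mean was set against a mean in which the dim arrays were raised, where lower, to their dimmest signal above background. The number of arrays limits the precision. Scanner errors are the software's own errors per spot, averaged over a gene's probes.

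Named are the 5 genes with all their probes, the called genes of the lists with the untested or uncalled ACS, ACO and SAM genes, and for each gene the 3 most like named genes. Members and lists were chosen with earlier results of these data known. Alternatives changed background correction, scaling, filter, block, slide, prior, the probes averaged and the arrays. The fit was tested on simulated data.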

Additional observations from a re-analysis of the deposited data

Results flagged for a closer look

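In leaf the SK array was far below the other 3 in 4 ACO1 probes, which lay at -5.00 (A_96_P074929), -4.91 (BT_S_96_P000016), -5.22 (BT_S_96_P000018) and -3.34 (BT_S_96_P000020) there, on the log2 scale. These were 4 of 40 sets of 4 arrays examined, where chance gives about 1 in 20, and all 4 are probes of 1 gene on 1 array.

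Fruit minus leaf of ACO1 was -0.81 in TM and above 0 in the other accessions. By probe the TM value was -1.26 (A_96_P073194), -0.92 (A_96_P074929), -1.02 (BT_S_96_P000016), -0.71 (BT_S_96_P000017), -0.44 (BT_S_96_P000018), -1.27 (BT_S_96_P000019) and -1.003 (BT_S_96_P000020). The EFE probe A_96_P000526 was at -2.54 in AV and above 0 in the others, with AV fruit and all leaf signals not well above background. These differences between accessions were not tested.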

How the results depend on the processing

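ACS2, ACS4 and ACO4 kept their direction and their call under each alternative run, with differences (log2) of 3.44 to 5.41, 1.64 to 4.20 and -5.11 to -3.19. ACO1, not called at 2.52, was called with normexp correction (2.35), the 75th percentile over all probes (2.78), spike-in scaling (1.21), slide as a random block (2.52), only the probes that passed the filter (2.52) and without TM, with adjusted p from 0.00926 to 0.0433 in these. Spike-in scaling used 3 of 10 spike probes, and its fit gave each of the 5 genes the same SE of 0.47. The SE of ACO1 in the main fit was 0.95, so its call under spike-in scaling does not rest on its own spread. EFE lost its call with spike-in scaling (0.45), no filter on dim probes (1.76), slide as a fixed term (0.73, from AV and TM alone) and without RJ. Leaving out 1 accession gave 4.34 to 5.14 for ACS2, 2.73 to 3.36 for ACS4, 1.58 to 3.63 for ACO1, 0.99 to 2.13 for EFE and -4.22 to -3.57 for ACO4. Leaving out only its leaf or its fruit array gave the same values, as the fit pairs the arrays by accession. Of the ACO1 probes, 0 of 8 to 8 of 8 were called, depending on the setting. In the fits of 6660 probes 806 to 2404 were called higher. Without the replicate block, ACO1 stayed uncalled (adjusted p = 0.0523), 4078 probes and 2776 targets were called in place of 3785 and 2540, and the call of SAM1 was the only one of the named genes to change (adjusted p = 0.0456). Probes and targets called were 6220 and 4063 with no filter, 942 and 709 among probes well above background on all 8 arrays, and 2421 and 1507 with slide fixed, and 3067 to 4061 and 1985 to 2722 when arrays were left out. The accession test called 55 probes and 48 targets with spike-in scaling, and 0 to 81 and 0 to 9 when arrays were left out, the most without AV fruit. Other ethylene and ripening genes lower in fruit were 2 with normexp, 7 with spike-in scaling and 1 among probes above background everywhere, where 3 were higher. Spike-in scaling moved the median difference of all probes from 0.08 to -1.23, so that 806 probes were higher and 3682 lower (410 and 2793 targets), and turned ACS3 (-1.21), SAM1 (-0.22) and EIL1 (-0.043). Targets split 1461 higher and 944 lower with normexp and 1610 and 1139 with the percentile over all probes, in place of 1224 and 1316. The order of EFE and ACO4 over the fruits changed with normexp only, those of the other 3 genes under none of 6 alternatives. The causes were not tested. Signals near the background limit what can be said of leaf ACS2 and ACS4, SK leaf ACO1 and the second EFE probe.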
